A study of Mus musculus with 8 samples.

Results

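In a mouse RNA-seq count table of 24062 genes, 10 genes of the NLR inflammasome system were examined. They are the NLR sensors Nlrp1a, Nlrp1b, Nlrp3 and Nlrc4, the pseudogene Nlrp1c-ps, the adaptor Pycard, the inflammatory caspases Casp1 and Casp4, and the cytokines Il1b and Il18, and each was taken as the row carrying its symbol. The set was chosen by measured values, the fall of the Nlrp1a and Nlrp1c-ps counts in PARP2-deleted cells. Values of that comparison are therefore given for the 10 genes as a description, and nothing is read from their tests. All 10 were among the 13197 genes that passed the filter on low counts.

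Total RNA of immature myeloid cells (IMCs) from C57BL/6 mice aged 2 months was sequenced in 8 libraries, 2 per group. PARP1 WT cells carried PARP1 flox/flox and PARP1CKO cells carried PARP1 flox/flox with lysozyme-Cre, while PARP2 WT and PARP2CKO cells carried the PARP2 flox/flox alleles without and with the same Cre. All cells were bone marrow cells kept for 3 days in 40 ng/mL of mouse M-CSF, the macrophage growth factor, without an inflammasome stimulus named in the labels. Lysozyme-Cre acts in the myeloid lineage, so cells outside it and cells that had not yet recombined keep the gene. The control cells lack Cre, and the deletion and the presence of Cre therefore cannot be told apart. The labels give neither sex nor batch. The design text calls the libraries biological duplicates, and with 2 per group a two-sided exact permutation test cannot give a p below 0.333.

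Library totals ran from 37852450 to 61845125 gene counts. Levels are in CPM, the usual scaling of gene counts to library size, with TMM factors, and a level of 1 stood for 38.7 to 59.7 counts. Parp1 was at 202 and 211 CPM in PARP1 WT, against 63.2 and 59.1 CPM after its deletion. Deletion of PARP2 took Parp2 from 48.2 and 48.3 CPM to 25.7 and 25.6 CPM, a fitted ratio of 0.53 in whole-gene counts, which cannot separate transcripts with and without the deleted exons. Parp1 itself was uneven in PARP2 WT, at 251 and 155 CPM. Summed over 11 macrophage and monocyte markers, the libraries held 8620 to 16100 CPM, against 2670 to 3370 CPM for 10 neutrophil markers and 3.29 to 5.95 CPM for 7 T and NK cell markers. No marker of the 12 cell type lists was at 0 in all libraries, and myeloid genes dominated, as the label immature myeloid cells says.

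An inflammasome is a protein platform that forms inside a cell after a microbe or cell damage has been sensed. A sensor, often of the NLR family, gathers the adaptor ASC, which brings together molecules of caspase-1. Active caspase-1 cuts the precursors of interleukin-1 beta and interleukin-18 and opens the pore former gasdermin D, so that the cytokines leave the cell and the cell can die by pyroptosis. In macrophages and monocytes most of these proteins are made in advance, whereas Nlrp3 and above all Il1b are usually raised by a priming signal. RNA levels therefore describe the stock of parts, not whether a platform was active.

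Nlrp1a, Nlrp1b and Nlrp1c-ps lie next to each other on the minus strand of chromosome 11 within 193 kb (GRCm38, the assembly called mm10). Nlrp1a spans chr11:71092236-71144704, Nlrp1b chr11:71153102-71230733 and Nlrp1c-ps, annotated as a transcribed unprocessed pseudogene, chr11:71242430-71285232. The NLRP1B protein of mice detects proteases such as anthrax lethal factor, which cut its N terminus, and an activating mutation of Nlrp1a is known to make blood progenitors die by pyroptosis. Because reads were 75 bases long, it matters how often a 75-base stretch of one gene can be found in another. Of 4306 such windows of Nlrp1a exons, 28 (0.65%) were found exactly in Nlrp1b and 0 in Nlrp1c-ps, and of 3383 windows of Nlrp1c-ps 0 were found exactly in either gene. Allowing up to 2 mismatches, 7.27% of Nlrp1a, 3.84% of Nlrp1b and 5.17% of Nlrp1c-ps windows matched another member of the cluster. The stretch of exon 2 shown here is typical, with 8 and 10 mismatches to Nlrp1a, equal to the medians over 2864 coding windows. It shows how a read can tell the 3 genes apart, and capitals mark the bases that differ from Nlrp1a (5′ to 3′, minus strand, GRCm38; Nlrp1a chr11:71124054-71124128, Nlrp1b chr11:71182653-71182727, Nlrp1c-ps chr11:71281008-71281082).
Nlrp1a: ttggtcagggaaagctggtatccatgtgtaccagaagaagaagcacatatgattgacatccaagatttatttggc
Nlrp1b: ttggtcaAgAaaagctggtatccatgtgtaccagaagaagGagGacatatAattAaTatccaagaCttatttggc
Nlrp1c-ps: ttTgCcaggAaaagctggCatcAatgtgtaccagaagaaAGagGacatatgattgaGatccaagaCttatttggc

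The promoters of Nlrp1a and Nlrp1b, printed because these neighbours differed so much in their counts, were nearly alike. Over 241 aligned columns of the 250 bases before each start, 219 (90.9%) were identical, with 4 gap columns. Capitals mark bases that are not identical or lie outside the alignment (RefSeq, GRCm38.p6, 5′ to 3′, minus strand; Nlrp1a chr11:71144705-71144954, Nlrp1b chr11:71230734-71230983).
Nlrp1a: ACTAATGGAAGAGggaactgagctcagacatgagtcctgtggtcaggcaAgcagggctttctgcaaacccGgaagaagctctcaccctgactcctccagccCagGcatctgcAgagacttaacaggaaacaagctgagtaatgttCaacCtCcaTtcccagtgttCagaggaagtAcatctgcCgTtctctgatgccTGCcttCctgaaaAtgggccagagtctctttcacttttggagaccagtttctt
Nlrp1b: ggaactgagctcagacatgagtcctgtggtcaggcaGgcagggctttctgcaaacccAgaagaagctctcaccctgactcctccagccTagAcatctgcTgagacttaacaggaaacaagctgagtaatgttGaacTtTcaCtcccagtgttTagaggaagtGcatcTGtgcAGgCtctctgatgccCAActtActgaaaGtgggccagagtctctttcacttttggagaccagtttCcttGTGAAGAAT

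Both promoters hold the letters GAGGAAGT, a motif of the type bound by the myeloid factor PU.1, searched on both strands. Of the 9 genes with a RefSeq promoter sequence, 3 hold it in any of their entries (Nlrp1a, Nlrp1b and Pycard), Nlrp1a and Nlrp1b being the near copies above. Of 32851 mouse promoter entries, 3.2% hold it, counted by entry and not by gene. The sequences searched run past the start, beyond the 250 bases printed. None of the 9 holds TGACTCA, the AP-1 motif, on either strand (5.2% of promoters). A match is a description of these letters and not a bound site.

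Nlrp1a spanned the most CPM of the cluster, while on the log2 scale Nlrp1c-ps varied more. It was at 22.5 and 19.3 CPM in PARP1 WT (PARP1CKO 22.4 and 20.0), with 9.55 and 17.9 CPM in PARP2 WT (PARP2CKO 2.08 and 1.74). The raw counts behind the last 4 values were 552, 929, 124 and 84. Both PARP2CKO libraries were below every other library, and the pair of PARP2 WT libraries differed by more than any other pair. The fitted log2 difference between PARP2CKO and PARP2 WT was -2.83 (SE 0.293), and it lay between -3.21 and -2.31 when 1 library at a time was left out. Whether fewer cells held Nlrp1a RNA or each cell held less cannot be told apart in bulk RNA.

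Nlrp1c-ps had the same order of group means at a lower level, also per kilobase. It was at 8.17 and 8.53 CPM in PARP1 WT (PARP1CKO 9.99 and 8.72) and at 3.51 and 6.15 CPM in PARP2 WT. Each PARP2CKO library listed it at 0. No read was counted there at depths where 3 counts would be 0.0503 and 0.0621 CPM, so the level was at least 77.8-fold lower than the mean of PARP2 WT with a floor of 3 counts per library. Measured against the lower PARP2 WT library alone, it was at least 56.5-fold lower. The floor covers counting error only.

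Nlrp1b, which lies between the other two, stayed near one level. It was at 31.7 and 33.0 CPM in PARP1 WT (PARP1CKO 32.5 and 30.4), with 29.7 and 28.4 CPM in PARP2 WT (PARP2CKO 26.1 and 25.6). The highest library was 1.29 times the lowest, against 12.9 times for Nlrp1a. The PARP2CKO libraries were the lowest of the 8, with a fitted log2 difference of -0.17 (SE 0.0543) from PARP2 WT. Per library, the Nlrp1a CPM was 0.586 to 0.709 of the Nlrp1b CPM in the 4 libraries of the PARP1 line, 0.321 and 0.629 in PARP2 WT, but as low as 0.0796 and 0.0679 in PARP2CKO. The ratio of Nlrp1c-ps to Nlrp1a was 0.344 to 0.446 in the 6 libraries outside PARP2CKO, so in PARP2 WT replicate 1 both genes were low together while Nlrp1b was not.

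**Figure D1:**
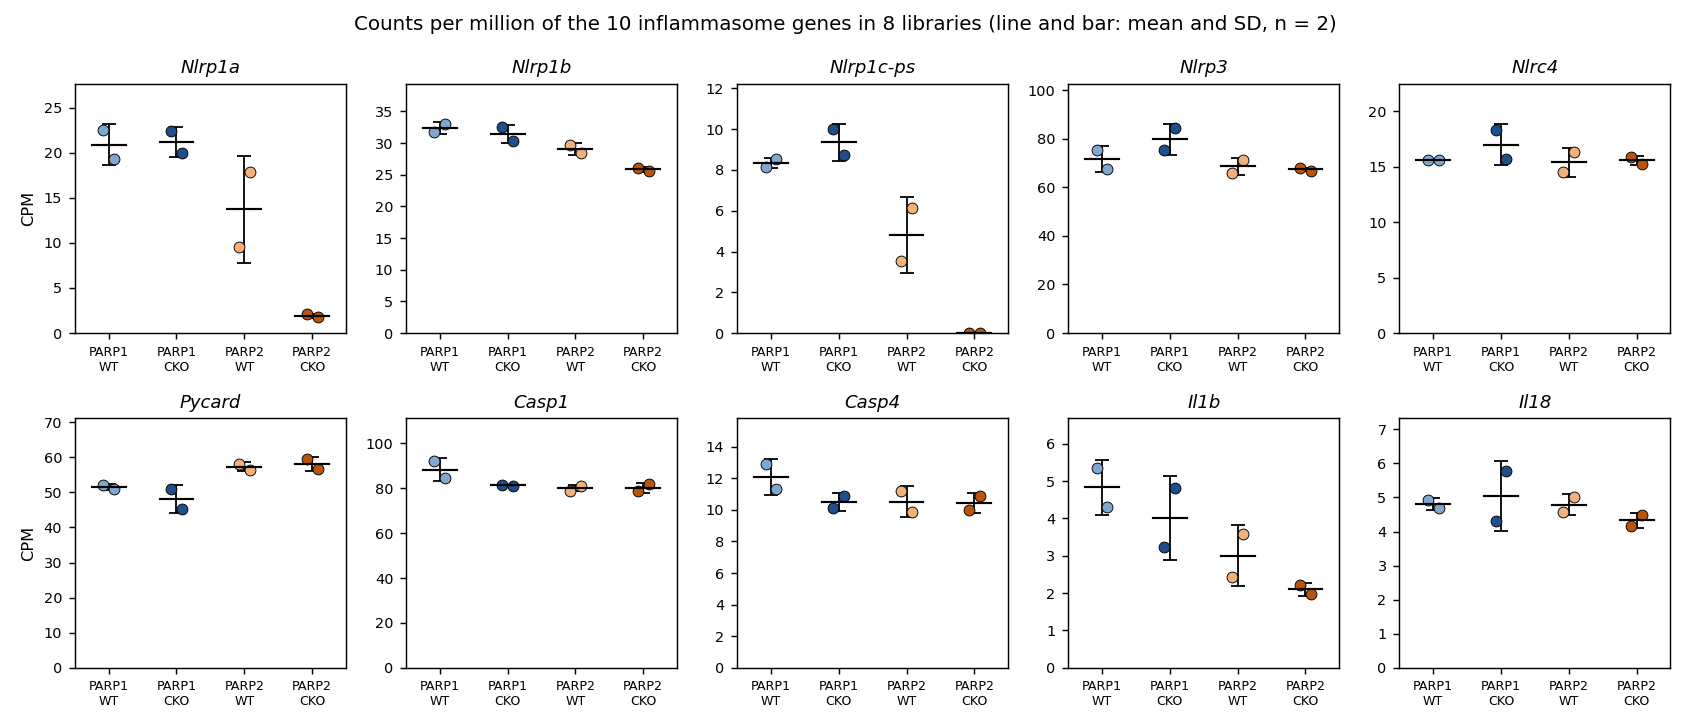
CPM (y axis, a separate linear scale from 0 for each gene) of the 10 inflammasome genes in the 4 groups (x axis), with each library as a point and the mean and SD of 2 as a line and bar. Nlrp1a and Nlrp1c-ps lie at 1.74 to 2.08 and at 0 in PARP2CKO, while Nlrp1b stays between 25.6 and 33.0 in all 8 libraries.

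The other sensors did not follow. Nlrp3 (chr11:59541568-59566956, plus strand, GRCm38), which responds to potassium loss, crystals and membrane damage, was at 75.5 and 67.8 CPM in PARP1 WT (PARP1CKO 75.4 and 84.4), with 66.1 and 71.2 CPM in PARP2 WT (PARP2CKO 67.9 and 66.9). Its groups overlapped in each comparison, and the single highest library was PARP1CKO replicate 2. Nlrc4 (chr17:74425438-74459142, minus strand), which acts with NAIP proteins against flagellin and bacterial secretion systems, lay between 14.5 and 18.3 CPM in all libraries. The fitted log2 difference of PARP2CKO from PARP2 WT was -0.03 (SE 0.0685) for Nlrp3 and 0.01 (SE 0.0875) for Nlrc4.

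Pycard (chr7:127989708-127993867, minus strand), which encodes the adaptor ASC, was at 52.2 and 50.9 CPM in PARP1 WT (PARP1CKO 51.0 and 45.2), with 58.2 and 56.5 CPM in PARP2 WT (PARP2CKO 59.4 and 56.6). The PARP2 line was higher than the PARP1 line in all libraries, and within each line the groups were close. Casp1 (chr9:5298517-5307265, plus strand) was the most even of the 10 genes, between 78.7 and 92.0 CPM, with both high values in PARP1 WT (92.0 and 84.7). Casp4 (chr9:5308828-5336783, plus strand), whose protein, also called caspase-11, binds bacterial lipopolysaccharide inside the cell, lay between 9.84 and 12.9 CPM. The exon windows of Casp1 and Casp4, which are neighbours on chromosome 9, shared 0 stretches of 75 bases. The fitted log2 difference of PARP2CKO from PARP2 WT was 0.02 for Pycard, 0.01 for Casp1 and -0.01 for Casp4.

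The cytokine genes were low in CPM, which takes no account of gene length. Il1b (chr2:129364570-129371139, minus strand) was at 5.35 and 4.31 CPM in PARP1 WT (PARP1CKO 3.23 and 4.82), with 2.42 and 3.58 CPM in PARP2 WT (PARP2CKO 2.23 and 1.97). Its lowest values were in PARP2CKO, close to PARP2 WT replicate 1, and the fitted log2 difference from PARP2 WT was -0.50 (SE 0.249), with a range of -0.76 to -0.20 as single libraries were left out. Il18 (chr9:50554827-50581840, plus strand), which is made without strong priming, was at 4.94 and 4.68 CPM in PARP1 WT (PARP1CKO 4.32 and 5.77), with 4.57 and 5.0 CPM in PARP2 WT (PARP2CKO 4.16 and 4.49). It showed no order among the groups beyond the spread of PARP1CKO, with a log2 difference of -0.15 (SE 0.145) for PARP2CKO.

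To compare the genes with each other, levels were divided by exon length. Casp1 was highest at 55.1 CPM per kilobase over all libraries, followed by Nlrp3 at 17.7 and Pycard at 14.1, and each of these was separated from the next gene in every library. Nlrp1b (4.71), Il18 (4.6), Nlrp1a (3.46), Nlrc4 (3.31) and Casp4 (2.94) followed, each with a range that overlapped that of the next. Nlrp1b and Il18 (lowest 4.07 and 4.03) lay above Nlrc4 and Casp4 (highest 3.8 and 3.48) in every library. The range of Nlrp1a, 0.418 to 5.4, reached across them. Il1b (1.83) and Nlrp1c-ps (1.63) were last. In PARP1 WT, Nlrp1a (5.02 ± 0.539 CPM per kilobase, SD, n = 2) and Nlrp1b (5.13 ± 0.141) did not differ beyond their spread, but by the longest transcript they did, at 5.35 ± 0.576 and 7.49 ± 0.206. In PARP2CKO the length-scaled level of Nlrp1a was 0.458 ± 0.0576 and that of Nlrp1b 4.10 ± 0.0518. Among the 13046 tested genes with a length, Casp1 stood at the percentile 93.8, Nlrp3 at 78.9, Il18 at 46.5 and Il1b at 29.1. The length of the longest transcript in place of all exons moved Casp4 from rank 8 to rank 5.

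**Figure D2:**
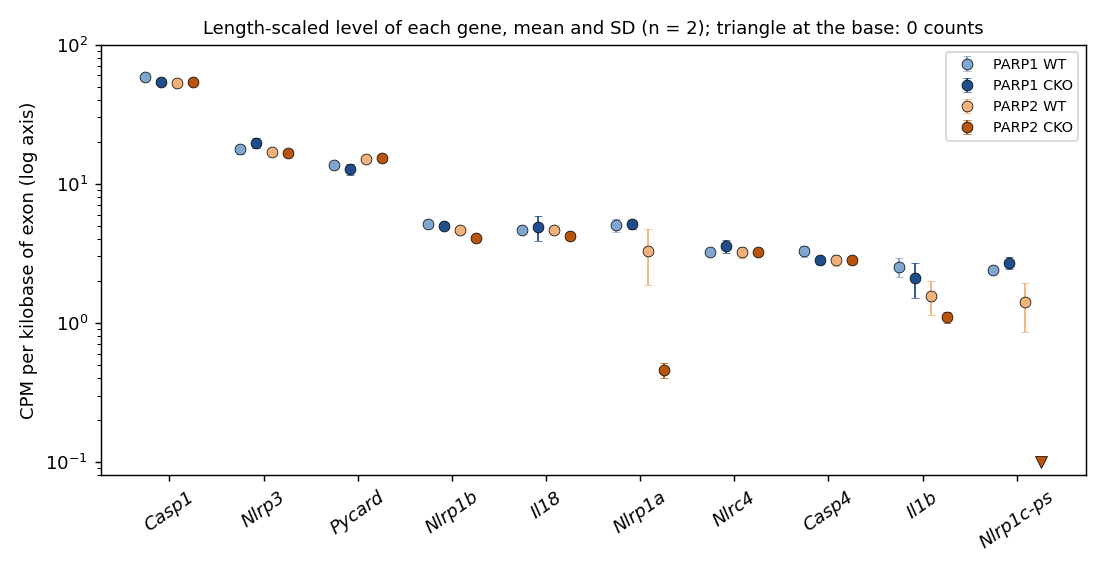
CPM per kilobase of exon (y axis, log scale) for each of the 10 genes (x axis), as the mean and SD of 2 libraries per group. Casp1, Nlrp3 and Pycard stay on top in all groups, and the PARP2CKO points of Nlrp1a and Nlrp1c-ps drop to 0.458 and to 0 counts.

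The comparison of PARP1CKO with PARP1 WT asked whether deletion of the other enzyme touched the same genes, and it did not enter the choice of the set. None of the 10 genes passed an adjusted p of 0.05 in edgeR's quasi-likelihood test, where 0.106% of all 13197 genes did. At an unadjusted p under 0.05 there were 2 of 10, with 11.3% of all genes, and DESeq2 and edgeR's likelihood-ratio test also called 0 (unadjusted 1 and 2). Nlrp1a differed by 0.03 on the log2 scale (95% interval -0.49 to 0.54, adjusted p = 0.974) and Nlrp1c-ps by 0.16 (-0.34 to 0.67, adjusted p = 0.805). For Nlrp1b the interval was narrow, -0.16 to 0.08 around -0.04. These intervals are not set against the PARP2CKO values, since those chose the set.

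The unadjusted pair in PARP1CKO was Nlrp3, with a log2 difference of 0.16 (SE 0.0689, adjusted p = 0.439), and Casp1, with -0.12 (SE 0.0479, adjusted p = 0.411). Groups did not overlap for 4 of the 10 genes, against 41.2% of all genes. Nlrp1c-ps and Nlrc4 were higher in PARP1CKO (21.0% of all genes) and Casp1 and Casp4 lower (20.2%). The median log2 difference over the 10 genes was -0.01 and that over all genes 0.01. PARP1CKO replicate 2 held the highest Nlrp3 and Il18 values, and the summed CPM of 12 interferon response genes was also highest there, at 345 against 127 to 248 in the other libraries. Without that library the Il18 difference went from 0.07 to -0.15, and the part of the interferon genes in these values was not tested.

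In PARP2CKO against PARP2 WT, the comparison that chose the set, the genes that passed the test were the pair used to choose it, with a background of 0.0530%, and nothing is read from that count. Nlrp1a was not past the threshold with only the 4 libraries compared, nor without either PARP1 WT library or either PARP2CKO library, the last leaving PARP2CKO with 1 library, and nothing is read from these calls either. Both libraries of PARP2CKO were below both of PARP2 WT for Nlrp1a and Nlrp1c-ps, the pair that chose the set. Among the other 8 genes this held for Nlrp1b, Il1b and Il18, where 18.8% of all genes were lower without overlap. None of these 8 was higher without overlap (18.4% of all genes), and in either direction the background was 37.2%. For the 8 genes other than Nlrp1a and Nlrp1c-ps, the log2 difference lay between -0.50 (Il1b) and 0.02 (Pycard). The summed macrophage and monocyte markers went from 14900 and 16100 CPM to 12400 and 11000 CPM with PARP2 deletion, and this fall was that of Lyz2, the lysozyme gene whose control elements drive the Cre. Lyz2 itself went from 9720 and 10800 CPM to 6740 and 5750 CPM, and it was also lower in PARP1CKO (3490 and 4330 CPM) than in PARP1 WT (5710 and 6390 CPM). The other 10 markers, a list trimmed after the values were seen, summed to 5150 and 5270 CPM in PARP2 WT, against 5640 and 5300 CPM with the deletion, and the part of these cells in the Nlrp1a values was not tested. Of 10 neutrophil markers, 7 were lower without overlap in PARP2CKO and 0 higher. Of 7 basophil and mast cell markers 5 were lower and 0 higher, with a sum of 29.5 and 30.9 CPM in PARP2 WT against 24.6 and 24.9 CPM with the deletion. Of 7 erythroid markers 4 were lower and 1 higher, with Hba-a1 and Hba-a2 counted apart though their CPM were the same in every library. The part of these cells in the Il1b values was not tested. Of the 10 genes, 1 (Nlrp1c-ps) passed the adjusted threshold when the effects of the 2 deletions were compared with each other, with a background of 0.0152%, and 2 (with Nlrp1a) were at an unadjusted p under 0.05, with a background of 7.69%. Nothing is read from these counts, since they hold the comparison that chose the set.

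The control groups of the 2 lines were compared as well, because Nlrp1a was already lower in PARP2 WT. This comparison shares the PARP2 WT libraries with the one that chose the set, so it is described without a test for Nlrp1a (log2 difference -0.61, -1.13 to -0.22 with single libraries left out) and Nlrp1c-ps (-0.80, -1.25 to -0.44). Both were nearer the PARP1 line without PARP2 WT replicate 1. None of the other 8 genes passed the adjusted threshold in edgeR's quasi-likelihood test, with a background of 3.16% of all genes. Unadjusted, 4 of the 8 were under 0.05 (Nlrp1b, Pycard, Casp1 and Il1b), with 18.9% of all genes, and DESeq2 and the likelihood-ratio test called 0 (unadjusted 2 and 4). Among these 8, Nlrp1b, Casp1, Casp4 and Il1b were lower in PARP2 WT without overlap (25.2% of all genes) and Pycard was higher (26.7%). In either direction 51.9% of all genes did not overlap. Nlrp1a and Nlrp1c-ps were also lower without overlap, and nothing is read from that.

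The widest of these 8 differences was that of Il1b, with a log2 difference of -0.69 (SE 0.236, adjusted p = 0.167, range over the alternatives 0.0493 to 0.524, the lowest without a low-count filter). It was -0.99 without PARP2 WT replicate 2 and -0.43 without PARP2 WT replicate 1, the ends of the range with 1 library left out. Pycard was 0.15 higher (adjusted p = 0.205), and Nlrp1b differed by -0.15 (adjusted p = 0.175 in edgeR) and Casp1 by -0.14 (adjusted p = 0.157). Markers of basophils and mast cells differed between the lines in the same direction as Il1b, with a summed level of 46.5 to 51.4 CPM over 7 genes in the 4 PARP1 libraries and 24.6 to 30.9 CPM in the 4 PARP2 libraries. B cell markers were also lower, 29.4 to 42.8 against 8.05 to 11.3 CPM over 6 genes, with all 6 of 6 lower in each PARP2 library, as were all 7 of 7 basophil and mast cell markers. The summed neutrophil markers were alike (2670 to 3360 against 2740 to 3370 CPM), but 4 of 10 (Retnlg, Cxcr2, Mmp9 and Csf3r) were lower in every PARP2 library and 0 higher. Over all tested genes, 9.93% were lower and 10.5% higher in this way. Granulocyte progenitor markers were higher, 272 to 320 against 368 to 416 CPM with 4 of 6 separated, and 3 of 11 macrophage and monocyte markers were higher and 0 lower. Cxcr2, a chemokine receptor gene, was at 19.3 to 24.6 against 10.5 to 16.4 CPM. The part of these cells in the Il1b values was not tested.

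**Figure D3:**
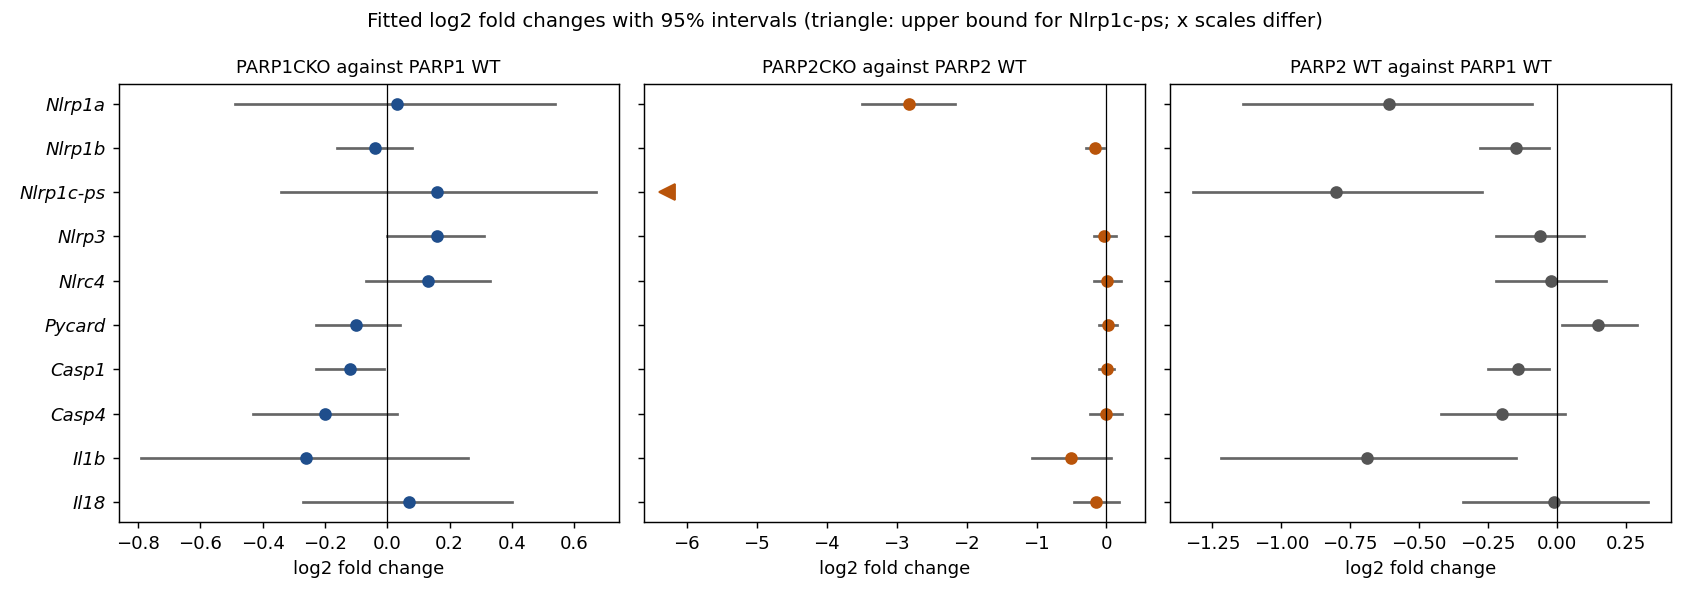
Fitted log2 fold change (x axis, a separate scale in each panel) with 95% intervals for the 10 genes (y axis) in the comparisons of PARP1CKO with PARP1 WT, PARP2CKO with PARP2 WT and PARP2 WT with PARP1 WT. In the middle panel Nlrp1a lies at -2.83 and the triangle for Nlrp1c-ps marks an upper bound of -6.28, while the other 8 genes lie between -0.50 and 0.02.

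The genes around the cluster were examined to see whether the low values reached beyond it. Within 1 Mb on either side the annotation lists 59 other genes, of which 42 were tested. In PARP2CKO against PARP2 WT, 22 of the 42 were fitted higher and 20 lower, with a median log2 difference of 0.01 and a range of -0.87 to 0.34, the lowest for Bcl6b, a gene at 0.117 to 0.415 CPM. None was called by the quasi-likelihood test, with 4 of 42 (9.52%) at an unadjusted p under 0.05, against 4.83% of all genes. Within 2 Mb none of 106 was called either, with 15 (14.2%) unadjusted. The median absolute log2 difference was 0.09 within 1 Mb and 0.10 within 2 Mb, against 0.06 over all genes. In PARP1CKO none of the 42 was called, with 3 (7.14%) unadjusted against 11.3% of all genes. The nearest tested gene on one side was Mis12, a kinetochore gene 64.9 kb from the cluster, with a log2 difference of -0.09, and on the other side Aipl1, 742.7 kb away, with -0.17. Between the control groups 10 of the 42 (23.8%) were at an unadjusted p under 0.05, against 18.9% of all genes. The 2 called there, where 3.16% of all genes were, were higher in PARP2 WT, Arrb2 (beta-arrestin, log2 difference 0.19, adjusted p = 0.0323 in edgeR) and Kif1c (a kinesin, 0.28, adjusted p = 0.0396).

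**Figure D4:**
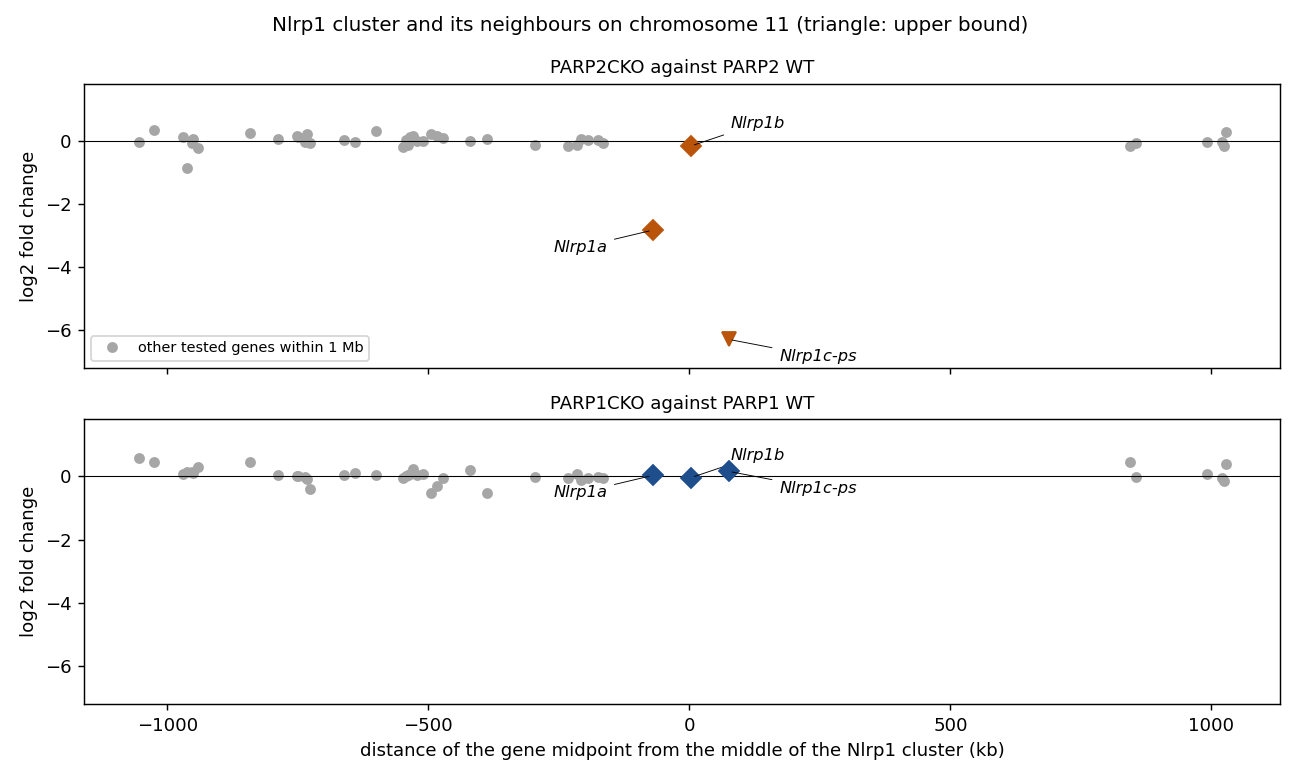
Fitted log2 fold change (y axis) of the Nlrp1 cluster (diamonds, and a triangle for the bound of Nlrp1c-ps) and of 42 tested genes within 1 Mb (grey points) against the distance of each gene from the middle of the cluster in kb (x axis), for PARP2CKO and PARP1CKO. In PARP2CKO the neighbours lie between -0.87 and 0.34, and Nlrp1a and Nlrp1c-ps lie below them on either side of Nlrp1b.

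The genes whose centred log2 CPM over the 8 libraries was most like that of a member were sought by the root mean square difference. The 8 include the PARP2CKO libraries, whose low values chose Nlrp1a and Nlrp1c-ps, so genes low in PARP2CKO had to come near this pair. Their likeness is a description, and nothing is read from it. For Nlrp1a, whose own root mean square deviation was 1.44, the most alike were Xlr3b (0.435), Ccl6 (0.506) and Scn4a (0.545). Ccl6, a chemokine gene of myeloid cells, was at 104 and 95.9 CPM in PARP1 WT (PARP1CKO 93.3 and 128), with 54.1 and 104 CPM in PARP2 WT (PARP2CKO 22.5 and 20.5), so it also had a low first PARP2 WT library. Xlr3b had at most 45 counts and Scn4a, a sodium channel gene, at most 29, and Xlr3b belongs to a family of close copies. Ccl6 (chr11:83587882-83593087) and Scn4a (chr11:106318592-106353288) lie on the chromosome of the Nlrp1 cluster, and Xlr3b on the X chromosome. The part of a shared chromosome in these values was not tested. For Nlrp1c-ps the most alike were Xlr3b (1.79), Nlrp1a itself (1.86) and Spint1 (2.15), against an own deviation of 3.27. Spint1, a protease inhibitor gene, was at 2.97 CPM in PARP2 WT replicate 1 but at 0.173 in PARP2 WT replicate 2 and at 0.184 and 0.166 in PARP2CKO.

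Members that hardly moved had near neighbours by the same measure. For Nlrp1b these were Nek2, Lrrc8c and Cldn12 (0.0343 to 0.0396 against an own deviation of 0.129), and for Nlrp3 they were Derl1, Zdhhc18 and Nampt (0.0163 to 0.0335 against 0.113). For Il1b they were Pard6b (0.145), the antisense gene 1500017E21Rik (0.155) and Prss34 (0.172), a protease gene of basophils and mast cells, against an own deviation of 0.497. Pard6b had at most 14 counts in a library and 1500017E21Rik, whose reads depend on how strand was counted, at most 13. Prss34 was at 7.68 and 6.37 CPM in PARP1 WT (PARP1CKO 5.21 and 7.19), with 4.03 and 4.79 CPM in PARP2 WT (PARP2CKO 2.72 and 3.62), and the control groups did not overlap.

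Beyond the 10 members, 102 further genes of sensing, assembly, cell death, the interleukin-1 family, its receptors, NF-kB priming and the interferon response were followed, of which 95 were in the table and 78 were tested. In PARP2CKO against PARP2 WT 0 of 78 passed the quasi-likelihood test (5 unadjusted, with 4.83% of all genes, and 0 by DESeq2 and by the likelihood-ratio test), with a median log2 difference of -0.03 against 0 over all genes. In PARP1CKO it was also 0 of 78 (10 unadjusted, where 11.3% of all genes were), with 1 call by DESeq2 (Ninj1) and 2 by the likelihood-ratio test (Ninj1 and Cxcl2), and a median of 0.01. Between the control groups 2 of 78 were higher and 0 lower in PARP2 WT (18 unadjusted, median -0.04), where 3.16% of all genes were called and 18.9% were under the unadjusted threshold. These were Ninj1 and Il1rl2. Both calls were lost when either PARP1 WT library, or PARP2 WT replicate 2, was left out, and 1 remained without PARP2 WT replicate 1.

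Of 15 tested sensors, 0 were called by the quasi-likelihood test in PARP1CKO, PARP2CKO or between the controls (0.106%, 0.0530% and 3.16% of all genes). Unadjusted, 3, 2 and 4 were under 0.05, with 11.3%, 4.83% and 18.9% of all genes. In PARP2CKO 13 of the 15 were fitted lower, where 50.7% of all genes were. The median log2 difference was -0.03 against 0 over all genes. The 2 most abundant were Naip2, a partner of Nlrc4 for bacterial secretion proteins, and Aim2, which binds DNA in the cytosol. Naip2 lay between 56.8 and 71.1 CPM. Aim2 was at 51.5 and 52.0 CPM in PARP2 WT but at 42.9 and 44.8 in PARP2CKO, a log2 difference of -0.24 (SE 0.0899, adjusted p = 0.937 in edgeR) without overlap. Naip5, Naip6 and Naip7, singled out after their values were seen, differed between the 2 libraries of PARP2CKO. Naip6, a flagellin sensor, was at 43.4 and 48.9 CPM in PARP1 WT (PARP1CKO 50.4 and 48.0), with 28.7 and 29.6 CPM in PARP2 WT (PARP2CKO 11.2 and 44.3). Naip7 was at 18.2 and 18 CPM in PARP2 WT and, in PARP2CKO, at 7.11 and 29.3, and Naip5, the other flagellin sensor, at 26.6 and 28.4 and at 18.1 and 37.2. Thus PARP2 WT lay below the PARP1 line in both libraries, PARP2CKO replicate 1 lay lower still, and PARP2CKO replicate 2 lay near the PARP1 line.

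The fitted Naip6 difference of -0.09 (SE 0.45) in PARP2CKO therefore hides 2 unlike libraries, and it became -1.38 without PARP2CKO replicate 2 and 0.60 without PARP2CKO replicate 1. Naip6 and Naip7 passed the threshold in the first case, but there PARP2CKO is 1 library, assumed to vary like those of the other groups. For Nlrp1a, in contrast, the same libraries were at 2.08 and 1.74 CPM. Naip5, Naip6 and Naip2 lie next to each other on chromosome 13, and the sequences of Naip5 and Naip6 are so close that 58.0% and 43.4% of their 75-base windows matched another of the Naip genes compared with up to 2 mismatches, so reads can have been split among them. The symbol Naip7 had no position in the annotation used and was not in that comparison. Whether its row counts reads apart from those of Naip6 was not tested. The sum of Naip5, Naip6 and Naip7, 105 to 117 CPM in the PARP1 line, was 73.5 and 76.0 CPM in PARP2 WT. In PARP2CKO it was 36.4 and 111 CPM.

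**Figure D5:**
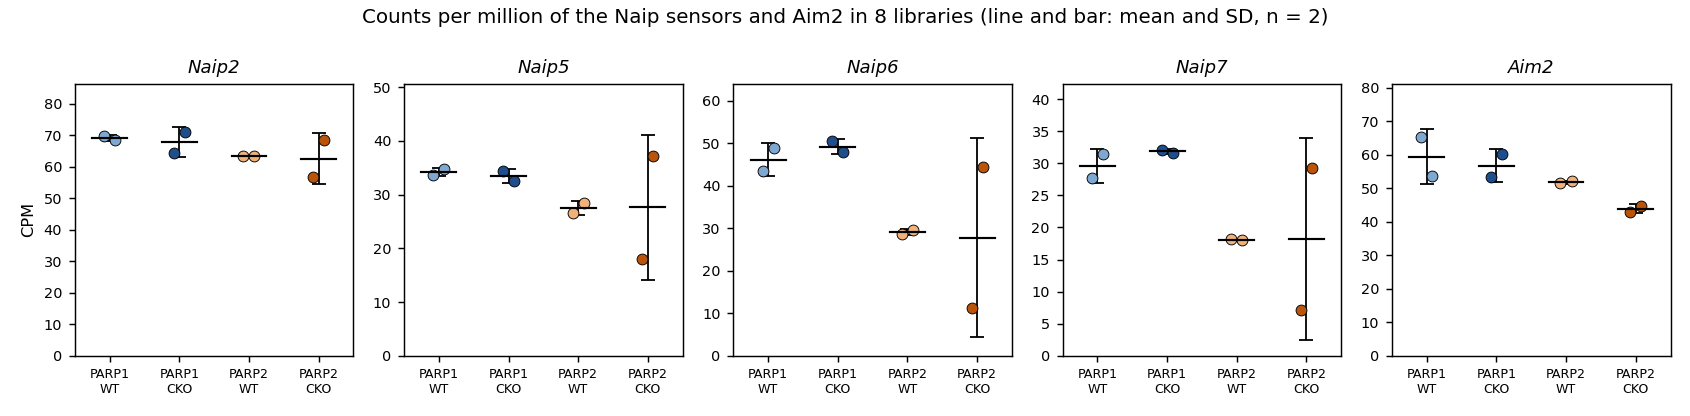
CPM (y axis, from 0, a separate scale for each gene) of 4 Naip rows and Aim2 in the 4 groups (x axis). Each library is a point, with the mean and SD of 2 as a line and bar. The Naip7 row had no position in the annotation. The pair of PARP2CKO libraries stands at 11.2 and 44.3 for Naip6 and 7.11 and 29.3 for Naip7, but at 42.9 and 44.8 for Aim2.

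Genes of assembly and control differed in how even they were. The most abundant of 15 tested were Txnip, a thioredoxin-binding protein gene linked to Nlrp3, at 210 to 243 CPM, and Dpp8, at 153 to 161 CPM, whose peptidase product holds Nlrp1 proteins in check. Interferon-inducible GTPase genes of the same list varied more, with Irgm1 at 27 to 54.9 CPM and Gbp5 at 0.58 to 2.06 CPM, both highest in PARP1CKO replicate 2. None of the 15 was called in any comparison by the quasi-likelihood test (0, 0 and 3 unadjusted in PARP1CKO, PARP2CKO and between the controls). Of all genes, 0.106%, 0.0530% and 3.16% were called in this order, and 11.3%, 4.83% and 18.9% were under the unadjusted threshold. Among 6 tested caspases and pore formers, Casp8, a caspase of cell death, stayed between 90.5 and 94.7 CPM. Ninj1, whose product ruptures the plasma membrane at the end of pyroptosis, was at 170 and 169 CPM in PARP1 WT (PARP1CKO 203 and 200), with 198 and 212 CPM in PARP2 WT (PARP2CKO 222 and 208). It was higher in PARP2 WT than in PARP1 WT by 0.27 on the log2 scale (SE 0.0484, adjusted p = 0.0225 in edgeR), and the PARP1CKO difference of 0.25 (SE 0.0485, adjusted p = 0.149) did not pass.

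In the interleukin-1 family 4 of 9 genes in the table were tested, and none was called (0, 0 and 1 unadjusted, the last being Il1a). The unadjusted shares of all genes were 11.3%, 4.83% and 18.9%. Il1rn, the receptor antagonist, was the most abundant, between 31.6 and 50.1 CPM. Il1f9, which encodes interleukin-36 gamma, lay between 9.20 and 18.4 CPM. All 4 were fitted higher in PARP2CKO than in PARP2 WT, with log2 differences of 0.01 to 0.43. Il1f9 (-0.20 to 0.63) and Il18bp (-0.04 to 0.06) changed sign with single libraries left out. The members Il1b and Il18 were fitted lower there. Of the 78 further genes tested, 25 were fitted higher and 53 lower, where 50.7% of all genes were lower. Il1rl2, the interleukin-36 receptor, was at 1.29 and 1.09 CPM in PARP1 WT and 2.84 and 2.33 in PARP2 WT, a ratio of 2.18 (SE 0.218 on the log2 scale, adjusted p = 0.0309 in edgeR). The signalling genes Irak1 and Tollip, the most abundant of 15 tested receptor and signalling genes, stayed between 124 and 135 CPM and between 115 and 124 CPM.

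Priming targets of NF-kB, the route that raises Nlrp3 and Il1b, gave 0 calls of 11 in each comparison by the quasi-likelihood test (2, 1 and 3 unadjusted in the same order). For all genes the unadjusted shares were 11.3%, 4.83% and 18.9%. Cxcl2, named after its values were seen, was lower without overlap in PARP1CKO (log2 difference -1.07, SE 0.286, 20.2% of all genes lower so). In PARP2CKO it was also lower (-0.56, SE 0.258, -0.89 to -0.13 with single libraries left out, 18.8% of all genes). Nfkb1 lay between 114 and 124 CPM. Tnfaip3, an inhibitor of NF-kB, was at 77.5 and 79.3 CPM in PARP2 WT but at 88.8 and 89.2 in PARP2CKO (log2 difference 0.18, SE 0.0575, adjusted p = 0.888 in edgeR). The 12 interferon response genes also gave 0 calls (2, 0 and 2 unadjusted, with 11.3%, 4.83% and 18.9% of all genes). All 12 were fitted higher in PARP1CKO (median 0.58) and all 12 lower in PARP2CKO (median -0.32). Without PARP1CKO replicate 2 the PARP1CKO differences lay between -0.24 (Ifi44) and 0.25 (Usp18). All 12 were also fitted lower in PARP2 WT than in PARP1 WT (median -0.54). The PARP1 line libraries overlapped, since the sum of the 12 was 248 and 177 CPM in PARP1 WT, against 212 and 345 with the deletion. In PARP2 WT the sum was 155 and 164 CPM, against 127 and 148 CPM in PARP2CKO. Oasl2, an interferon-induced antiviral gene, was at 40.7 and 24.0 CPM in PARP1 WT, against 36.9 and 61.2 CPM with the deletion.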

How the data were processed

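Raw counts per gene were deposited for 8 libraries. The authors extracted total RNA, made stranded libraries from 4 µg, sequenced single-end reads of 75 bases, trimmed them with fastq-mcf, mapped them to mm10 with TopHat2 2.0.12, marked duplicates with Picard 1.127 and counted with featureCounts. Annotation, strand setting and use of marked duplicates are not given in the sources used here. Counts were tested with edgeR 4.0.16 in R 4.3.3 (quasi-likelihood test, TMM factors, filterByExpr, 1 mean per group over 8 libraries, Benjamini-Hochberg adjustment over 13197 genes, threshold 0.05). TMM factors lay between 0.965 and 1.03. Of 24062 genes, 6520 had no count. Alternatives used DESeq2 1.42.0, and figures used matplotlib 3.10.9. The outcome of a check of the test on simulated counts is not given here, and nothing is read from it. Replicates differed by more than sampling noise (chi-square per gene 8.56 to 12.9). Positions and exon lengths come from GENCODE M21 (GRCm38), and 22708 genes matched by symbol and 933 by a RefSeq synonym. Likeness used log2 CPM with a prior count of 2.

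The members, the wider gene lists and the tests were chosen with earlier results of these data known. Genes named are the 10 members, Parp1 and Parp2, every called gene and the 2 most abundant genes of each wider list, called genes within 1 Mb of the Nlrp1 cluster, and the 3 genes most like Nlrp1a, Nlrp1b, Nlrp1c-ps, Nlrp3 and Il1b. Others were named after their values were seen. One gene that this rule names is not reported here. Cell type markers were summed as CPM over 12 lists: neutrophils, granulocyte progenitors (272 to 416 CPM), macrophages and monocytes, dendritic cells (25.3 to 38.6), B cells, T and NK cells, erythroid cells (3.57 to 11.9), basophils and mast cells, osteoclasts (62.0 to 77.6), platelets and megakaryocytes (264 to 371), stromal cells (1.23 to 3.12) and endothelial cells (14.7 to 20.6). The erythroid sum holds both Hba-a1 and Hba-a2, whose values were the same.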

Additional observations from a re-analysis of the deposited data

Results flagged for a closer look

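The effect of deletion on Nlrp1c-ps differed between the lines, with a log2 difference between the PARP2CKO and PARP1CKO effects of -11.08 in edgeR's quasi-likelihood fit. The value holds the comparison that chose the gene and is a description, and its size depends on how edgeR treats the 0 counts of PARP2CKO. In CPM, the gene went from 3.51 and 6.15 to 0 and 0 with PARP2 deletion, and from 8.17 and 8.53 to 9.99 and 8.72 with PARP1 deletion.

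For 3 genes of interleukin-1 signalling, both libraries moved one way with PARP1 deletion and the opposite way with PARP2 deletion, which is 3.85% of the 78 genes followed here and a smaller share than the 6.62% of all tested genes. They were picked by this pattern, and none of their differences between the effects passed the adjusted threshold in edgeR. Il1rn was lower in PARP1CKO and higher in PARP2CKO, a difference of 0.35 between the log2 effects (adjusted p = 0.609 in edgeR). Irak3, an inhibitor of the pathway, was higher in PARP1CKO and lower in PARP2CKO, a difference of -0.20 (adjusted p = 0.571 in edgeR). Tollip was lower in PARP1CKO and higher in PARP2CKO, a difference of 0.12 (adjusted p = 0.678 in edgeR).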

How the results depend on the processing

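The log2 differences of the 10 genes in PARP1CKO, and of the 8 tested between the control groups, kept their direction and their side of the threshold under another normalization, test, filter, set of libraries or replicate block, except that Il1b between the control groups passed without a low-count filter (-0.68, adjusted p = 0.0493 in edgeR). Of the pair only described there, Nlrp1c-ps was under the threshold with DESeq2, the likelihood-ratio test and no filter, and Nlrp1a with no filter. Nothing is read from these calls. Leaving Lyz2 out of the macrophage markers was chosen after seeing the data. Leaving out 1 library at a time changed the sign of small differences. In PARP1CKO the ranges were -0.09 to 0.14 for Nlrp1a, -0.09 to 0 for Nlrp1b, -0.57 to 0 for Il1b and -0.15 to 0.27 for Il18. Between the control groups they were -0.14 to 0.02 for Nlrp3, -0.11 to 0.07 for Nlrc4 and -0.07 to 0.06 for Il18.

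Counts of called genes moved more than single values. In PARP1CKO, the number over all genes was 14, against 86 with DESeq2, 146 with the likelihood-ratio test and 101 without a filter, and 1 to 34 with single libraries left out. For PARP2CKO it was 7, against 27, 39 and 26 in the same order, and 4 to 19. Between the controls it was 417, against 910 with the likelihood-ratio test and 872 without a filter, and 85 to 566. For the difference between the effects it was 2, against 45, 72 and 61, and 1 to 16. Of the wider list, the number called in PARP1CKO was 0, against 1 with DESeq2, 2 with the likelihood-ratio test and 2 without a filter. In PARP2CKO it was 0, and 0 to 2 with single libraries left out (2 only where PARP2CKO keeps 1 library). Between the controls it was 2, against 4 with the likelihood-ratio test, 6 with only the 4 libraries compared and 5 without a filter, and 0 to 6. The cause of these shifts was not tested. A window of 2 Mb in place of 1 Mb raised the called neighbours between the control groups from 2 to 4. With the longest transcript as length, Casp4 moved from rank 8 to 5, Il18 from 5 to 6, Nlrp1a from 6 to 7 and Nlrc4 from 7 to 8.

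Replicate numbers are shared by the groups, but nothing says that they pair the samples. Deviations of same-numbered libraries from their group means correlated at -0.133 between PARP1 WT and PARP1CKO, 0.147 between PARP2 WT and PARP2CKO and -0.0486 between the control groups, across genes. When replicate number entered as a block, 14, 6, 315 and 3 of all genes were called in the order above, the Nlrp1a difference in PARP2CKO was -2.81, that of Il1b between the controls was -0.70 (adjusted p = 0.186 in edgeR), and the block changed no call among the 10 members.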
